A study of Homo sapiens with 6 samples.

Results

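DEAD-box and DEAH-box RNA helicases, the proteins with DDX and DHX symbols, were followed in T24 bladder cancer cells with lowered MTHFD2. Members were the rows of the deposited count table whose symbol is DDX or DHX, a number and at most 1 letter. DDX3Y, antisense partners, DDX11L names and pseudogenes such as DDX12P were left out. Of 54261 rows, 90 began with DDX or DHX and 54 met the rule. Membership itself used symbols only, but the family was picked out with results of this knockdown contrast known. The counts of members that changed are therefore a description of these libraries and support nothing about the family as a whole.

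These enzymes bind RNA and use ATP to open short RNA duplexes or to strip proteins from RNA. Most DDX proteins pry a duplex apart locally, while DHX proteins tend to move along a strand. Different members act in the nucleolus on ribosomal RNA precursors, in the spliceosome, at the nuclear pore, in translation and in the sensing of viral RNA. The family takes its names from the letters of a conserved stretch, motif II, that takes part in ATP binding and hydrolysis.

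T24 is an established line of human bladder cancer cells, and 6 of its RNA-seq libraries were compared. The T24-shRNA2 libraries (n = 3) came from cells with a lentiviral hairpin that targets MTHFD2, which works in mitochondrial folate metabolism. The T24-NC libraries (n = 3) came from cells with the negative control lentivirus, whose name lists no hairpin. Both viruses also carry ZsGreen, a green fluorescent protein, and puromycin resistance, and all cells had been selected with puromycin to stable lines. The labels give only 1 hairpin for these libraries and do not say whether the lines were pools or clones, or whether replicates were separate cultures. The p-values therefore rest on library-to-library spread that could be technical only.

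Library totals were 19896302, 18769214 and 18452506 counts in T24-shRNA2 and 17801990, 19435833 and 19978392 counts in T24-NC. MTHFD2 (GRCh38 chromosome 2, 74198562 to 74217565, plus strand) held 538, 667 and 686 counts in T24-shRNA2 libraries against 3241, 3613 and 3417 in T24-NC libraries. MTHFD2 fell by 2.51 on the log2 scale (SE 0.13; edgeR adjusted p = 1.8e-06). Of 14 urothelial and epithelial markers, KRT7, KRT8 and KRT18 were abundant, KRT20 and UPK3A were at 0, and KRT5, TP63 and GATA3 had at most 5 counts in any library; the list summed to 1000 to 1320 CPM in T24-shRNA2 and 2110 to 2520 CPM in T24-NC. The 10 fibroblast markers summed to 40.4, 10.7 and 36.3 CPM in T24-shRNA2 replicates 1, 2 and 3, against 6.67 to 8.06 CPM in T24-NC libraries. Leukocyte markers summed to 1.64 to 3.28 CPM in T24-shRNA2 and 2.55 to 2.74 CPM in T24-NC, and endothelial markers to 1.12 to 1.71 and 2.07 to 3.02 CPM. The part of these marker levels in the results was not tested.

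Members were gathered by symbol, and the codons of motif II show where their sequences are alike and where they differ. In-frame letters for it were searched in the longest coding sequence that GENCODE release 29 gives for each gene, with the codons of the nucleotide-binding motif upstream. The codons for DEAD were found in 26 of 37 DDX genes and those for DEAH in 8 of 16 DHX genes. DDX17 had no coding sequence with an ATG start to search, and the others had other letters or no match. No match was found in DDX1, DDX11, DDX24, DDX52 and DHX32. The upstream codons had to lie within a set distance, so a gene without a match may still hold the motif. The stretches below are coding DNA, 5′ to 3′, of a typical DEAD member that fell and of the 3 members whose change held with any single library left out. Capitals mark the 4 codons of the motif.
DDX51: ctgattatcGACGAGGCTGACcggatgatt
DHX37: gtgatcatcGACGAGGCCCACgagaggagc
DHX40: attattttgGATGAAGCCCATgaaagaact
DDX39A: tttgtgctgGACGAGTGTGACaagatgctg
The first 2 codons differ between these 4 genes only in how they spell the same residues. The last codon is that of the DEAD form in DDX51 and DDX39A and that of the DEAH form in DHX37 and DHX40, and DDX39A has a cysteine codon in the third place.

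Of the 54 members, 47 passed the low-count filter of edgeR and were tested, with p-values adjusted over all 13896 tested genes. At an adjusted p under 0.05, 11 of the 47 fell in T24-shRNA2 libraries, 23.4%, where 7.58% of all tested genes fell. Another 2 of the 47 rose, 4.26%, where 9.71% of all tested genes rose; in either direction 17.3% of all tested genes were called. The log2 fold changes of the 47 had a median of -0.19, beside 0.01 over all tested genes, and ran from -0.82 to 0.62. In CPM the 3 knockdown libraries lay below all 3 controls for 24 of the 47 (19.0% of all tested genes) and above them for 3 (20.1% of all tested genes). Nothing is read from these shares, because the family was picked with this contrast known. In bulk RNA, fewer cells of a type and less RNA per cell cannot be told apart.

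**Figure D1:**
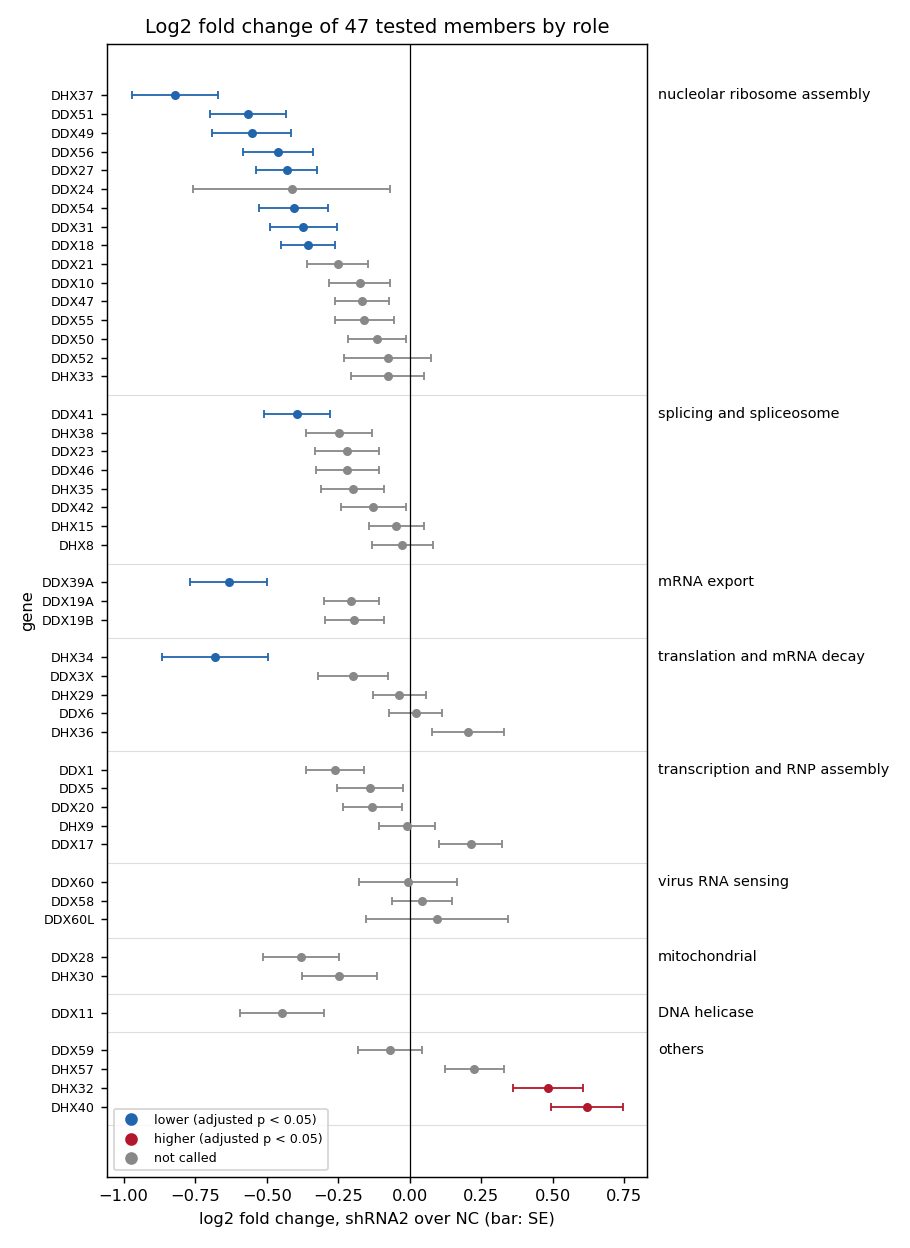
Log2 fold change of T24-shRNA2 over T24-NC with its standard error (x axis) for the 47 tested members, grouped by role (y axis); blue points fell, red points rose and grey points did not pass an edgeR adjusted p of 0.05. All 16 nucleolar members sit left of 0, from -0.82 to -0.08, as do 6835 of the 13896 tested genes. Both members that rose, DHX32 and DHX40, are outside the named roles. The roles were chosen with earlier results of these data known.

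Of the 11 members that fell, 8 were helicases of nucleolar ribosome assembly. Nothing is read from this grouping, because the roles were chosen with earlier results of these data known. All 16 nucleolar members were tested, and 8 fell and none rose, where 7.58% of all tested genes fell and 9.71% rose. The median log2 fold change of the 16 was -0.37. DHX37, which in yeast (as Dhr1) releases the U3 small nucleolar RNA from the small-subunit precursor, had 50.01, 35.7 and 31.7 CPM in T24-shRNA2 libraries against 70.1, 65.6 and 71.8 CPM in T24-NC libraries. Every knockdown library was below every control. Its log2 fold change of -0.82 ± 0.15 was the lowest in the family (SE; edgeR adjusted p = 0.00484). DHX37 lies on chromosome 12 at 124946825 to 124989122, minus strand.

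DDX51 and DDX49, nucleolar helicases of the large and the small subunit, came next among the nucleolar members. DDX51 had 40.6, 31.8 and 28.7 CPM in T24-shRNA2 libraries against 47.1, 49.4 and 53.0 CPM in T24-NC libraries. The groups did not overlap, at -0.57 ± 0.13 on the log2 scale (SE; edgeR adjusted p = 0.0157). DDX49 had 46.3, 34.5 and 32.6 CPM in T24-shRNA2 libraries against 53.2, 53.4 and 59.9 CPM in T24-NC libraries. Again no knockdown library reached the lowest control, with a log2 fold change of -0.55 ± 0.14 (SE; edgeR adjusted p = 0.0188).

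DDX56 and DDX27 act on large-subunit precursors. DDX56 had 103, 79.3 and 86.6 CPM in T24-shRNA2 libraries against 112, 120 and 138 CPM in T24-NC libraries, a log2 fold change of -0.46 ± 0.12 (SE; edgeR adjusted p = 0.0254). DDX27, which works with the PeBoW complex on the ends of ribosomal RNA, had the highest mean CPM of the 8. It had 221, 192 and 183 CPM in T24-shRNA2 libraries against 257, 261 and 286 CPM in T24-NC libraries, a log2 fold change of -0.43 ± 0.11 (SE; edgeR adjusted p = 0.0177). Neither gene's groups overlapped. DDX27 shares 203 exonic bases, 3.7% of its exons, with ZNFX1 on the other strand.

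DDX54, DDX31 and DDX18 are relatives of the yeast assembly factors Dbp10, Dbp7 and Has1. DDX54 had 99.7, 77.7 and 79.0 CPM in T24-shRNA2 libraries against 108, 108 and 124 CPM in T24-NC libraries (log2 fold change -0.41 ± 0.12, SE; edgeR adjusted p = 0.0388). DDX31 had 45.0, 38.1 and 35.1 CPM in T24-shRNA2 libraries against 51.0, 49.8 and 52.4 CPM in T24-NC libraries. Its adjusted p of 0.0454 was the nearest of the called members to the threshold (edgeR; log2 fold change -0.37 ± 0.12, SE). DDX31 shares 367 exonic bases, 6.6% of its exons, with GTF3C4 on the other strand. The strandedness of the libraries is not given, so reads there could belong to either gene. DDX18 had 204, 184 and 193 CPM in T24-shRNA2 libraries against 253, 250 and 242 CPM in T24-NC libraries, and of the 11 members that fell it had the smallest change, -0.36 ± 0.09 (SE; edgeR adjusted p = 0.0237). All 3 genes were lower in each knockdown library than in any control.

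The other 8 nucleolar members did not pass. DDX21, which binds ribosomal RNA precursors and small nucleolar RNAs, had 432, 406 and 390 CPM in T24-shRNA2 libraries against 507, 516 and 439 CPM in T24-NC libraries (log2 fold change -0.25 ± 0.11, SE; edgeR adjusted p = 0.118). Its paralogue DDX50 was at -0.11 ± 0.10 on the log2 scale. DDX10, DDX47 and DDX55, relatives of yeast Dbp4, Rrp3 and Spb4, lay between -0.18 and -0.16 with knockdown libraries below all controls. DDX52 and DHX33 were both at -0.08 with overlapping groups. DDX24 was counted at only 19, 23 and 24 counts in T24-shRNA2 libraries and 39, 20 and 24 counts in T24-NC libraries, so its log2 fold change of -0.41 had a standard error of 0.35. The counting tool and annotation are not named, so these counts are reported as listed, without a statement about the expression of DDX24.

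**Figure D2:**
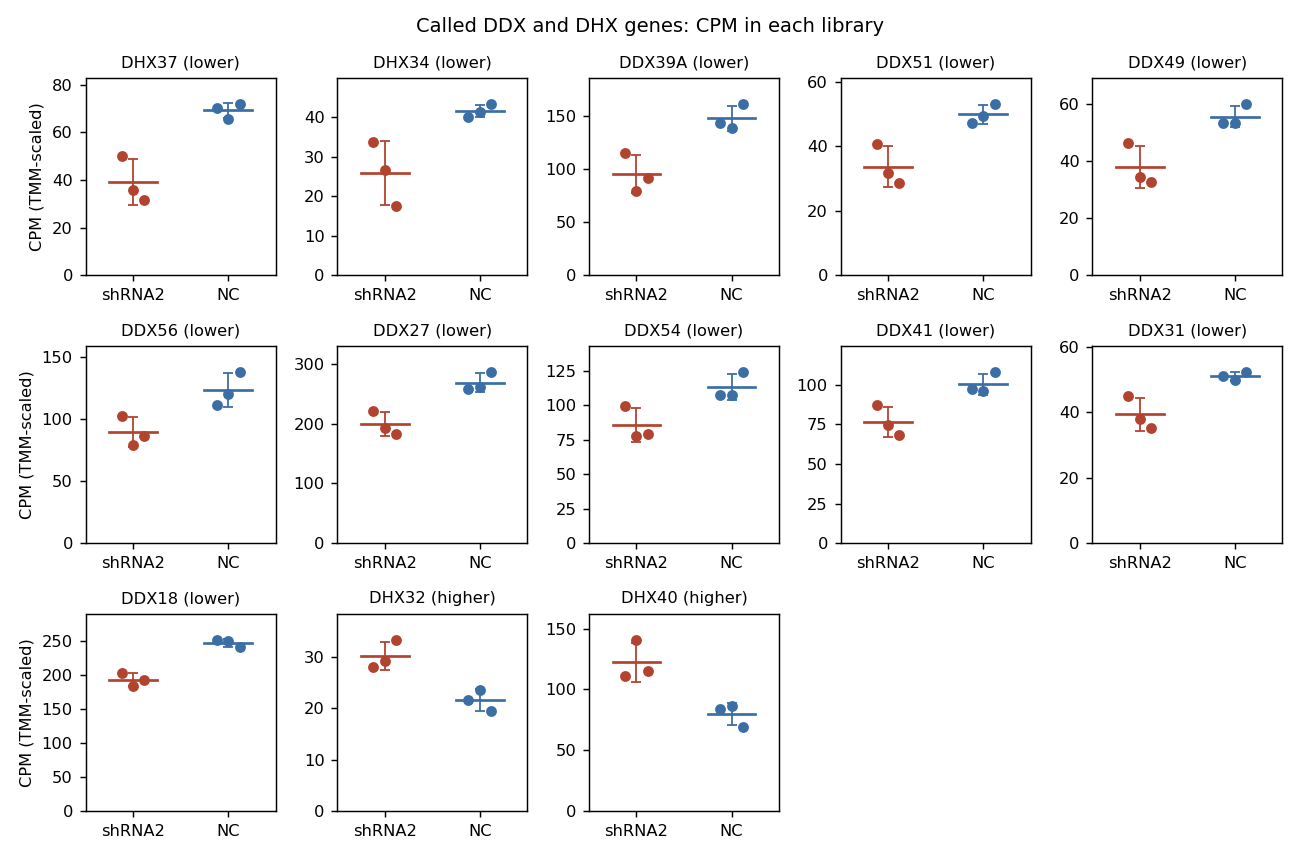
CPM on TMM-scaled library sizes (y axis, from 0) in each library for the 13 members past the threshold, with T24-shRNA2 left of T24-NC (x axis); points are libraries in the order of their replicate numbers, bars the mean and whiskers the SD (n = 3). In each panel the 2 groups do not overlap, and T24-shRNA2 replicate 1 is the knockdown library nearest to the controls in all 11 genes that fell.

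Spliceosomal helicases showed 1 fall among 8 tested members, where 7.58% of all tested genes fell. The other 7 also had negative values, as had 6835 of the 13896 tested genes. DDX41, a spliceosome protein mutated in hereditary myeloid neoplasms, had 87.2, 74.4 and 68.1 CPM in T24-shRNA2 libraries against 97.2, 96.2 and 108 CPM in T24-NC libraries. It fell by 0.39 on the log2 scale (SE 0.12; edgeR adjusted p = 0.036). The motors that drive single steps of splicing lay between -0.25 and -0.03: DHX38 (Prp16 in yeast) at -0.25 ± 0.12, DDX23 (Prp28) at -0.22 ± 0.11, DDX46 (Prp5) at -0.22 ± 0.11 and DHX8 (Prp22) at -0.03 ± 0.11. DHX35, DDX42 and DHX15 were at -0.20, -0.13 and -0.05. DHX15, which disassembles spliceosomes, had 296, 268 and 292 CPM in T24-shRNA2 libraries and 306, 288 and 290 CPM in T24-NC libraries, with overlapping groups.

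The remaining spliceosomal members, DDX39B and DHX16, were listed at 0 in all 6 libraries. Both lie in the major histocompatibility region of chromosome 6, DHX16 at 30653119 to 30673037 and DDX39B at 31530219 to 31542448. Of 189 protein-coding genes of the table between 28 and 34 megabases on that chromosome, 130 were at 0 in every library, 68.8%, against 19.9% of the 18612 others. Genes used by every cell, TUBB and VARS among them, were at 0 there too. The zeros of DDX39B and DHX16 are therefore reported as listed, without a statement about their expression.

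In mRNA export, DDX39A, a paralogue of DDX39B that loads export adaptors onto mRNA, fell. It had 115, 79.7 and 91.4 CPM in T24-shRNA2 libraries against 144, 139 and 162 CPM in T24-NC libraries. The groups were well apart, with a log2 fold change of -0.63 ± 0.13 (SE; edgeR adjusted p = 0.00945). DDX19A and DDX19B, which release mRNA from export factors at the cytoplasmic face of the nuclear pore, were at -0.20 ± 0.10 and -0.19 ± 0.10 (edgeR adjusted p = 0.155 and 0.21). A read-through transcript shares exons with both, so their reads could have been assigned to either.

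Among helicases of translation and mRNA decay, 1 of 5 fell, where 7.58% of all tested genes fell. DHX34, which acts in nonsense-mediated decay, had 33.8, 26.7 and 17.5 CPM in T24-shRNA2 libraries against 40.2, 41.3 and 43.4 CPM in T24-NC libraries. The knockdown libraries were spread over a wide range, all under the controls, with a change of -0.68 ± 0.19 on the log2 scale (SE; edgeR adjusted p = 0.0284). DDX3X, which aids translation of mRNAs with structured leaders, had 510, 474 and 404 CPM in T24-shRNA2 libraries and 558, 568 and 466 CPM in T24-NC libraries, with overlap and no call (-0.20 ± 0.12). DHX29, of the scanning ribosome, and DDX6, of decapping and P-bodies, had standard errors of 0.09 around values of -0.04 and 0.02. DHX36, which resolves G-quadruplexes, was at 0.20 ± 0.13.

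None of the 5 helicases of transcription and ribonucleoprotein assembly passed, although they include some of the most abundant members. Of all tested genes 17.3% were called. DDX1, a subunit of the tRNA ligase complex, had 204, 174 and 206 CPM in T24-shRNA2 libraries against 228, 239 and 233 CPM in T24-NC libraries. The groups did not overlap, but the adjusted p was 0.0949 (edgeR; log2 fold change -0.26 ± 0.10, SE). DDX5 and DDX17, paralogues that act as transcriptional coactivators, were at -0.14 ± 0.12 and 0.21 ± 0.11, and DHX9, also called RNA helicase A, at -0.01 ± 0.10. DDX20, of the SMN complex, was at -0.13 ± 0.10.

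Sensors of viral RNA stayed near 0 with wide errors for the rarer ones. DDX58, which encodes RIG-I, had 61.9, 65.3 and 71.8 CPM in T24-shRNA2 libraries and 66.5, 66.7 and 59.8 CPM in T24-NC libraries (log2 fold change 0.04 ± 0.11). The interferon-induced DDX60 and DDX60L were at -0.01 ± 0.17 and 0.10 ± 0.25. DHX58, which encodes LGP2, had 1 to 5 counts per library and was not tested, and 3 counts, the most that a count of 0 allows, equal 0.149 to 0.171 CPM here. Such floors cover counting error only.

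The mitochondrial helicases DDX28 and DHX30, which act on the mitochondrial ribosome, were not called. DDX28 had 15.9, 12.6 and 16.4 CPM in T24-shRNA2 libraries against 18.8, 19.9 and 19.7 CPM in T24-NC libraries, without overlap (log2 fold change -0.38 ± 0.13, SE; edgeR adjusted p = 0.0691). Its single exon shares 487 of 2169 bases, 22.5%, with DUS2 on the other strand. DHX30 was at -0.25 ± 0.13 with overlapping groups. DDX11, a DNA helicase of sister chromatid cohesion, was the uncalled member nearest to the threshold. It had 64.2, 51.5 and 40.0 CPM in T24-shRNA2 libraries against 70.8, 70.7 and 70.9 CPM in T24-NC libraries (log2 fold change -0.45 ± 0.15, SE; edgeR adjusted p = 0.0564). Reads of DDX11 and of the near-identical DDX12P, at -0.28 ± 0.17, may be shared. The germ cell members were not tested: DDX43 and DDX53 were at 0 in all libraries, DDX4, the VASA helicase, had at most 3 counts and DDX25 at most 1.

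DHX40 and DHX32 rose, and both lie outside the named roles. DHX40, a DEAH-box protein whose function is little known, had 111, 141 and 116 CPM in T24-shRNA2 libraries against 83.8, 86.5 and 69.0 CPM in T24-NC libraries. The lowest knockdown library was above the highest control, with a log2 fold change of 0.62 ± 0.13 (SE; edgeR adjusted p = 0.0077). DHX32, a relative of DHX15, had 28.04, 29.1 and 33.3 CPM in T24-shRNA2 libraries against 21.7, 23.6 and 19.5 CPM in T24-NC libraries. It rose by 0.48 ± 0.12 on the log2 scale (SE; edgeR adjusted p = 0.0213). DHX32 shares 409 exonic bases, 10.4% of its exons, with BCCIP on the other strand, and the strandedness of the libraries is not given, so their reads cannot be told apart there. BCCIP itself was at -0.23 ± 0.11 (edgeR adjusted p = 0.16). DHX57 was higher in all 3 knockdown libraries without a call (0.23 ± 0.10; edgeR adjusted p = 0.149), and DDX59 was at -0.07 ± 0.11.

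Promoter windows, 250 bases before to 50 after a start site, were taken from RefSeq on GRCh38.p14. By symbol 48 of the 54 members had at least 1 window, 63 windows in all; DDX18, DDX49, DDX52, DDX58, DHX33 and DHX58 were not matched. The E-box CACGTG, which reads the same on both strands, was in a window of 10 of the 48 members, 20.8%, beside 8.77% of 27305 genes with a window. It was in 6 of the 11 called members with a window (DDX31, DDX54, DHX34, DHX37, DHX32 and DHX40) and in 3 of the 31 tested members that were not called. These members both fell and rose, so the letters were in windows of genes that moved either way. The share among all called genes was not computed, so nothing is read from the difference between called and uncalled members. TGACGTCA was in 5 of the 48, DDX51 the only called one, beside 2.25% of all genes, and TGATGCAA was in none, beside 1.08%; both were searched on both strands. A match describes the letters only and is not a binding site.

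The 4 DHX members that were called all had an E-box in their window. Of the called DDX members with a window, only DDX31 and DDX54 had one. The windows of the 4 DHX members are shown 5′ to 3′ on the gene's strand because DHX37 and DHX34 fell while DHX40 and DHX32 rose. Capitals mark CACGTG, which starts 41 bases after the start site in DHX37 (chr12:124989082-124989381, minus strand). In DHX34 (chr19:47349065-47349364, plus strand) it opens the window, in DHX40 (chr17:59565360-59565659, plus strand) it lies 150 bases and in DHX32 (chr10:125881243-125881542, minus strand) 115 bases before the start site. The DHX32 window belongs to a start inside the GENCODE gene, downstream of its 5′ end.
DHX37: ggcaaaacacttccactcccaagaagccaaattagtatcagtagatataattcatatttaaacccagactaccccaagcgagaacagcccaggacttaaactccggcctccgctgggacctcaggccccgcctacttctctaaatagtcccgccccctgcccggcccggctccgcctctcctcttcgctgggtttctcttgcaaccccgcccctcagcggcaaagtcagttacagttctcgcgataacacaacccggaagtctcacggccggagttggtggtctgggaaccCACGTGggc
DHX34: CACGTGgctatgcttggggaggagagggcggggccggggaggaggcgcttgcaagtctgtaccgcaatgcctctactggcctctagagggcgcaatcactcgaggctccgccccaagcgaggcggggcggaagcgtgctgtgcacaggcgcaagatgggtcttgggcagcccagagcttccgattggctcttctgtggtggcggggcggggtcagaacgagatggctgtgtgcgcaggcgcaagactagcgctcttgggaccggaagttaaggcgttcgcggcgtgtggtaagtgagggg
DHX40: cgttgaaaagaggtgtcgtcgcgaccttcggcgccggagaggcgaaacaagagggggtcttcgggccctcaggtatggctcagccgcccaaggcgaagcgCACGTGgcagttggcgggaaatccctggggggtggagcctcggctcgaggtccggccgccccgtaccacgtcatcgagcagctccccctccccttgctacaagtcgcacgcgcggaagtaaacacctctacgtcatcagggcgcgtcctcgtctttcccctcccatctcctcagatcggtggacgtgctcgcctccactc
DHX32: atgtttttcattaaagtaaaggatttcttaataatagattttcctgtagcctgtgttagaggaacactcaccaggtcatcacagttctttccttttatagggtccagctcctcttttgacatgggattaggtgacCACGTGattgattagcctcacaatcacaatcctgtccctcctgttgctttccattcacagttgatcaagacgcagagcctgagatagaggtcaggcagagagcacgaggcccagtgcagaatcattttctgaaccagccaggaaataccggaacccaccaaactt

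Transcript GC content moved with the changes of the members. The 11 members that fell had a median GC content of 58.3% in their longest transcript, the 2 that rose 41.3% and the 34 not called 43.6%. Across the 47 tested members Spearman's rho between GC content and log2 fold change was -0.72, and across 12553 tested genes with an annotation it was -0.26; all points come from the same 6 libraries. With trends on GC content and exonic length removed, all 13 called members were still called, and in total 19 members fell and 2 rose. Calls also grew over all genes, to 1586 lower and 1744 higher, from 1053 and 1349 without the trends removed. In that fit DHX37 was at -0.72 ± 0.11, DDX39A at -0.49 ± 0.09 and DHX40 at 0.50 ± 0.09 on the log2 scale (SE). Every called member other than DDX18 was nearer to 0 there than without the trends removed. DHX37, DDX39A and DHX40 had been at -0.82, -0.63 and 0.62. DDX49 and DDX54 were at -0.35 and -0.27, against -0.55 and -0.41 without the trends removed. DDX18, at 40.5% GC the only member with a GC content under 50% that fell, was farther from 0 in that fit, at -0.51 ± 0.09. The median of the 47 members was -0.24 there, beside -0.004 over all genes.

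**Figure D3:**
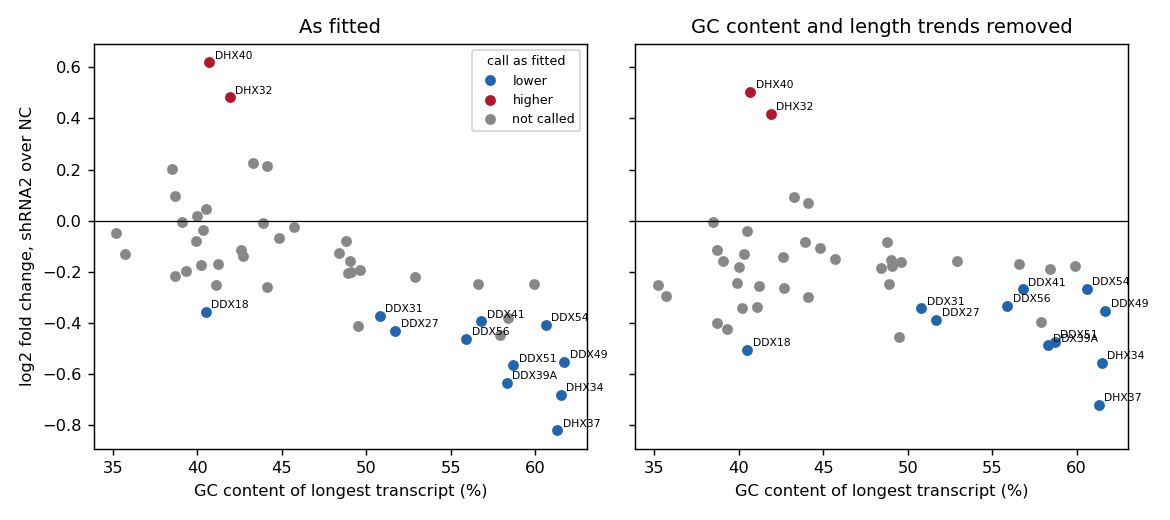
Log2 fold change of T24-shRNA2 over T24-NC (y axis) against the GC content of the longest transcript in percent (x axis) for the 47 tested members, as fitted (left) and with trends on GC content and length removed (right); colours give the call as fitted. On the left the values drop with GC content (Spearman's rho -0.72), and on the right DHX37 at -0.72 and DHX40 at 0.50 remain the outermost members.

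The direction of all 13 called members was kept in every fit that left out 1 library, but the calls were not. The kept direction tests nothing, because the groups of each of these members did not overlap. DHX37, DDX39A and DHX40 passed in all 6 such fits, with log2 fold changes of -1.04 to -0.69, -0.79 to -0.52 and 0.51 to 0.68. Without T24-NC replicate 3 only these 3 were called, and the other 10 had edgeR adjusted p-values of 0.061 to 0.151. Calls over all genes dropped there too, to 368 lower and 618 higher, from 1053 and 1349 with all 6 libraries. Without T24-NC replicate 1, 5 were called (DDX51 and DDX56 with the 3 above), and the lost calls had edgeR adjusted p-values of 0.0509 to 0.131. Over all genes 403 were then lower and 600 higher. Without T24-NC replicate 2, DDX18, DDX31, DDX41 and DDX54 lost their calls (edgeR adjusted p = 0.0622 to 0.0903). Leaving out T24-shRNA2 replicate 2 ended those of DDX18, DDX31, DDX41, DDX54 and DDX56 (0.063 to 0.0982), and leaving out replicate 3 those of DDX31, DDX41 and DDX54 (0.0641 to 0.0789), while DDX28 was then called (edgeR adjusted p = 0.0456). Without T24-shRNA2 replicate 1 all 13 stayed and DDX11 and DHX30 joined them. Over all genes, 743 were lower and 936 higher without T24-NC replicate 2. Without T24-shRNA2 replicates 1, 2 and 3, 1213, 617 and 1177 genes were lower and 1394, 852 and 1468 higher.

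The knockdown libraries differed in the size of the falls. T24-shRNA2 replicate 1 had the highest CPM of the 3 knockdown libraries for all 11 members that fell, while replicate 3 was the lowest for 7 and replicate 2 for 4. Among the 34 members not called, replicate 1 was the highest for 19 and replicate 3 the lowest for 21. Replicate 3 was thus often the lowest in both sets, while replicate 1 was always the highest only among the members that fell. For the 2 members that rose, replicate 1 was the lowest. The order over all genes was not computed. The median coefficient of variation of the 47 members was 10.7% in T24-shRNA2 and 5.69% in T24-NC libraries, beside 13.5% and 9.22% over all tested genes. With T24-shRNA2 replicate 2 as the only knockdown library, the log2 fold changes of the 13 called members ran from -0.96 for DHX37 to 0.81 for DHX40. This fit takes the spread of the controls for the lone library. The direction of these members tests nothing here, because their groups did not overlap.

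**Figure D4:**
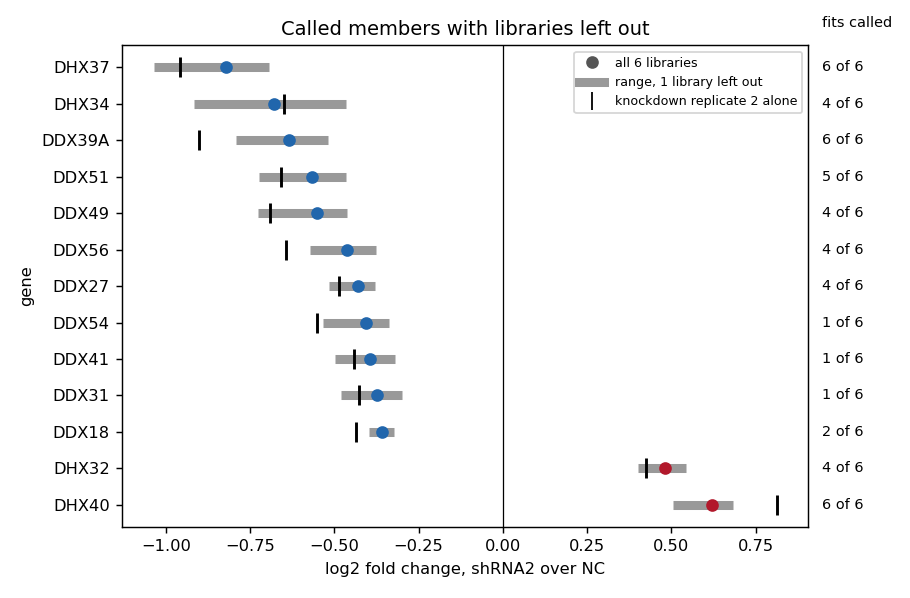
Log2 fold change of T24-shRNA2 over T24-NC (x axis) of the 13 called members (y axis): points are the fit on all 6 libraries, grey bars the range over the 6 fits that leave out 1 library, and black ticks the fit with T24-shRNA2 replicate 2 as the only knockdown library. At the right stands how many of the 6 fits called the gene: 6 for DHX37, DDX39A and DHX40, and 1 for DDX31, DDX41 and DDX54.

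Levels were compared between genes as counts per kilobase of exon, scaled to the same sum in each library (TPM). DDX21 stood highest, at 337 ± 31.7 in T24-shRNA2 and 369 ± 52.6 in T24-NC libraries (SD, n = 3 each). DDX5 followed at 318 ± 44.2 and 321 ± 43.4, and DHX9 at 313 ± 32.7 and 288 ± 25.7, with overlapping spreads between neighbours in that order. DDX21 lay above DHX9 in each T24-NC library, while in T24-shRNA2 the mean ± SD ranges of all 3 overlapped. Their order depends on the length used: per kilobase of the longest transcript, DDX5 led in T24-NC at 471, with DDX21 and DHX9 both at 271. DDX1 came next at 209 ± 6.98 and 230 ± 15.6, below each of them. Of the members that fell, DDX27 (151 ± 18.3 in T24-shRNA2 and 186 ± 2.50 in T24-NC) and DDX39A (102 ± 17.1 and 145 ± 2.83) were the most abundant per length. DHX34 (19.0 ± 6.33 and 27.6 ± 0.872) was the least abundant of them. At the low end of the tested members stood DDX60, DDX60L and DDX24, at 4.28, 1.01 and 0.665 in T24-NC libraries. This scale has no TMM factor, and differences between the groups are taken from the edgeR fit. All 54 members together made up 0.64, 0.62 and 0.556% of the counts of T24-shRNA2 libraries and 0.656, 0.668 and 0.599% of those of T24-NC libraries.

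**Figure D5:**
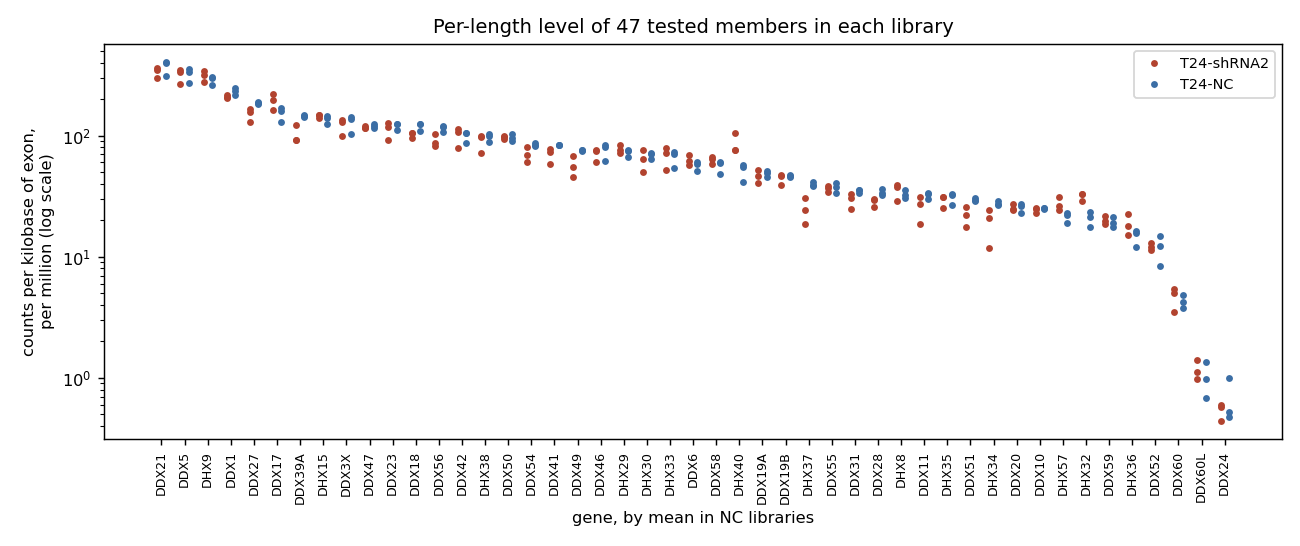
Counts per kilobase of exon, scaled to the same sum in each library (TPM; y axis, log scale) of the 47 tested members in each library, ordered by the mean in T24-NC (x axis); red points are T24-shRNA2 and blue points T24-NC libraries. The order runs from DDX21 at 369 to DDX24 at 0.665 in T24-NC, and for most genes the points of both groups lie close together.

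Ratios between paralogues within a library do not depend on library scaling. The log2 ratio of DDX5 to DDX17, per length, was 0.84, 0.61 and 0.73 in T24-shRNA2 libraries against 1.07, 1.09 and 1.07 in T24-NC libraries. DDX17 thus made up more of the pair in every knockdown library, a difference of -0.36 in the log2 ratio. For DHX15 to DHX32 the log2 ratio was 2.35, 2.15 and 2.08 in T24-shRNA2 libraries against 2.77, 2.56 and 2.85 in T24-NC libraries. Both pairs reached p = 0.1 in a two-sided exact permutation test, the smallest p that 3 against 3 allows, and 0.3 adjusted over the 6 pairs that could be computed. The log2 ratios of DDX19A to DDX19B (mean 0.06 and 0.07), DDX21 to DDX50, DDX60 to DDX60L and DHX9 to DHX30 overlapped between the groups.

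RNA helicases of the same superfamily without a DDX or DHX symbol gave no call. Of 18 on the list with a row, 15 were tested, 0 passed by edgeR and 3 had an unadjusted p under 0.05, while DESeq2 called 1. Of all 13896 tested genes, edgeR called 17.3%. An unadjusted edgeR p under 0.05 was found for 2183 lower and 2453 higher genes. With so few helicases tested, nothing is read from the absence of a call. HELZ, at 0.44 ± 0.15 on the log2 scale, had the lowest adjusted p (edgeR adjusted p = 0.0624). The translation helicase EIF4A2 was at 0.06 ± 0.10 and the exon junction helicase EIF4A3 at -0.32 ± 0.12 (edgeR adjusted p = 0.0864). EIF4A1, which every cell uses, was listed at 0 in all libraries. Among 34 partner proteins of the family, all tested, 4 fell and none rose, 11.8% beside the 7.58% of all genes. UTP14A, which in yeast activates the relative of DHX37, had 71.1, 59.2 and 54.6 CPM in T24-shRNA2 libraries against 89.3, 86.2 and 92.2 CPM in T24-NC libraries (log2 fold change -0.53 ± 0.12, SE; edgeR adjusted p = 0.0103). ALYREF, the export adaptor that DDX39A and DDX39B load, was at -0.51 ± 0.14, TRIM25, the ubiquitin ligase of RIG-I, at -0.46 ± 0.12 and TFIP11, the G-patch partner of DHX15, at -0.37 ± 0.11.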

How the data were processed

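Whole-number counts per gene symbol were deposited by the authors, not normalized, in 1 table for 6 T24 libraries, all columns of which were used. Per the submitters' processing notes, HISAT2 2.0.4 and the build GRCh38 were used; the counting tool, annotation, strandedness and filters are not named by any source available here. Groups came from the titles. Every replicate pair differed by more than counting error (chi-square over its degrees of freedom 2.56 to 31.6).

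After filterByExpr and TMM scaling, T24-shRNA2 was tested over T24-NC with the robust quasi-likelihood test of edgeR 4.0.16 in R 4.3.3, with Benjamini-Hochberg adjustment over 13896 genes. Standard errors were taken as log2 fold change over root F. CPM values use TMM-scaled library sizes. Positions, exon lengths and GC content came from GENCODE release 29, matched by symbol. DESeq2 1.42.0, RLE scaling, no or another filter on low counts, a replicate block, libraries left out, GC and length trends removed and a threshold of 0.01 were the alternatives. Paralogue ratios used a pseudocount of 0.5 counts. On simulated counts for this comparison (13896 genes), edgeR recovered 62% of genes changed 1.5-fold and 92% at 2-fold, with 7% false calls. A far smaller share of genes was changed there than the 17.3% called in the data. Recovery and false calls depend on that share, so both may differ in these libraries.

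The members, lists and roles were chosen with earlier results of these data known. Named were MTHFD2 and every member, with values per library for called members, the 3 uncalled members nearest to the threshold and some abundant members added after their values were seen, and called list genes with, added later, HELZ, EIF4A1, EIF4A2 and EIF4A3. A motif search on protein sequences was replaced by one on coding DNA.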

Additional observations from a re-analysis of the deposited data

How the results depend on the processing

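No called member changed direction under any alternative run. In the fits with libraries left out this was given in advance, because the groups of the called members did not overlap. RLE scaling and a filter of 1 CPM in 3 libraries called 13 members, as did the analysis as reported, and DESeq2 called 14, adding DDX11. With GC content and length trends removed, 19 members, 1586 genes, 7 partner proteins and 2 related helicases were called lower. At a threshold of 0.01, 2 members were lower and 1 higher, and 277 genes were lower and 472 higher. With T24-shRNA2 replicate 2 as the only knockdown library, 2220 genes were lower and 2212 higher, 12 partner proteins were lower, and 2 related helicases were lower and 2 higher. DESeq2 and the analysis without a low-count filter each called 1 related helicase higher. Leaving out 1 library gave 2 to 13 members lower and 1 to 2 higher, 368 to 1213 genes lower and 600 to 1468 higher, 1 to 7 partner proteins lower, and 0 to 1 related helicases in each direction. The counts of members and of all genes were lowest without T24-NC replicate 1 or 3.

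Same-numbered libraries of the groups correlated at -0.02, 0.297 and 0.353 in their deviations from the group means. T24-shRNA2 replicates 2 and 3 correlated best with their own number. T24-shRNA2 replicate 1 did not, so the numbers were not taken as pairs. A replicate block called 19 members lower and 3 higher, 2496 genes lower and 2566 higher, 13 partner proteins lower, and 3 related helicases lower and 2 higher. DDX24 and the untested DDX4, DDX25 and DHX58 had few counts as listed, so differences in them were not detectable.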
